A study of Mus musculus with 2 samples.

Results

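The chemokine gene Cxcl12 and the genes of its receptors, Cxcr4 and Ackr3, were followed in the embryonic mouse heart. They were picked by gene symbol, and all 3 were found among 43346 Ensembl genes in the deposited gene and transcript tables. The study sequenced total RNA from hearts of B6NCrl embryos at embryonic day 13.5, and the labels name no treatment, allele or transgene. It holds 1 group of 2 libraries, which the labels number as biological replicates 1 and 2. Male and female embryos were pooled for each, and both tissue samples stand under 1 donor entry. Whether the pools share litters is not stated. Reads assigned to genes summed to 34545778 in replicate 1 and 35137136 in replicate 2.

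Cxcl12 is a secreted chemokine that draws migrating cells along a gradient and binds heparan sulfate on cell surfaces and in the matrix. Cxcr4 is its signalling receptor, coupled to inhibitory G proteins. Ackr3, formerly Cxcr7, binds the same ligand, recruits arrestin rather than G proteins and takes the ligand up for degradation. In the developing heart the axis is known for its part in coronary vessel growth, outflow tract and valve formation.

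Cxcl12 was the most abundant of these genes, Ackr3 followed at an intermediate level, and Cxcr4 was close to the limit used here for detection. Levels are given as TPM (transcript abundance corrected for length and depth) with the bounds of the credibility interval deposited by the authors. No header gives the level of that interval. Cxcl12 stood at 145.8 TPM in replicate 1 (bounds 140.0 to 146.2) and 151.0 TPM in replicate 2 (144.6 to 151.2). Ackr3 stood at 29.8 TPM (28.2 to 30.6) and 31.5 TPM (29.7 to 32.3), and Cxcr4 at 1.04 TPM (0.830 to 1.499) and 1.33 TPM (1.06 to 1.82). The intervals of the 2 libraries overlapped for each gene, while those of different genes overlapped in neither library. The bounds lie around the deposited posterior mean, so that the TPM itself can sit near an end of its interval, as for Cxcl12, or outside it. Gpc3, described below, lay above its interval at 397.4 TPM in replicate 1 (384.8 to 394.6) and 440.9 TPM in replicate 2 (426.5 to 437.2).

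**Figure D1:**
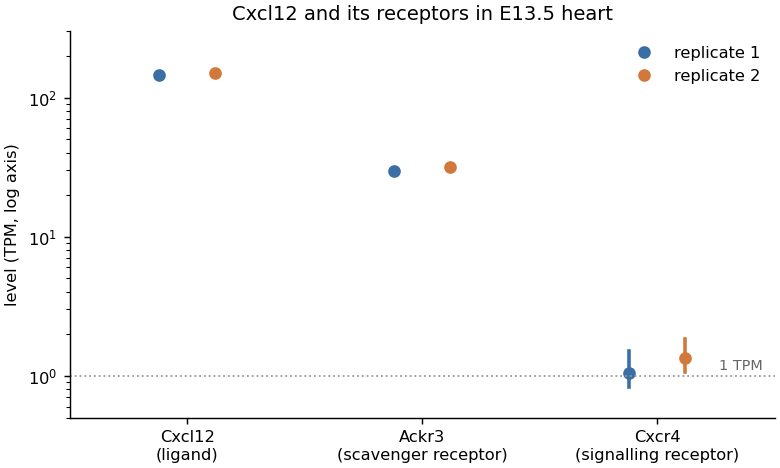
Level of each gene (TPM, log axis) in replicates 1 and 2, with points for the deposited TPM and vertical lines for the deposited credibility bounds (hidden by the points where narrow). Cxcl12 lies at 145.8 and 151.0 TPM, Ackr3 at 29.8 and 31.5 TPM, and the lines of Cxcr4 cross the dotted line at 1 TPM in replicate 1 only.

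All 3 genes reached 1 TPM in both libraries, a level that 57.3% of 21474 protein-coding genes reached. For Cxcr4 this rests on few reads. It drew 52 reads in replicate 1 (exact 95% Poisson interval 38.8 to 68.2) and 62 in replicate 2 (47.5 to 79.5), and its lower bound of TPM was under 1 in replicate 1. Cxcl12 drew 8751 and 8326 reads and Ackr3 drew 2573 and 2536. Such intervals hold counting error alone, because reads that carry no molecular identifier may be copies of 1 molecule. Estimated counts of the 3 genes were whole numbers (within 0.005) with a posterior SD of 0 in both libraries, so no read was split with another gene. No other annotated gene overlaps any of the 3, which matters because no source used here says whether counting was strand-specific.

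Cxcl12 (ENSMUSG00000061353.7) lies on the plus strand of chromosome 6 from 117168535 to 117181367 on GRCm38, the assembly also called mm10. Its mean of 148.4 ± 3.7 TPM (SD, n = 2) ranked 816 among the 21474 protein-coding genes. Of the 12308 other protein-coding genes at 1 TPM or more, 98.5% lay apart from it, with intervals above it in both libraries or below it in both. For 22 of the remainder the intervals overlapped that of Cxcl12 in both libraries.

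The files list 4 transcripts of Cxcl12, of which 3 encode the chemokine and 1 is annotated as a retained intron. The coding transcripts share their first 266 coding bases and part ways at the 3′ end of exon 3. They then code for 89 (Cxcl12-202), 93 (Cxcl12-203) and 119 codons (Cxcl12-201), the lengths of the alpha, beta and gamma forms of the chemokine. The ends below are shown because they set the 3 coding forms apart. They were read 5′ to 3′ on the plus strand from the GENCODE M21 transcripts on GRCm38. The last 15 shared bases are in lower case, and the bases past the shared stretch, stop codon included, are in capitals.
Cxcl12-202: gaaagctttaaacaaGTAA
Cxcl12-203: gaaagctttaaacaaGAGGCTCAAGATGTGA
Cxcl12-201: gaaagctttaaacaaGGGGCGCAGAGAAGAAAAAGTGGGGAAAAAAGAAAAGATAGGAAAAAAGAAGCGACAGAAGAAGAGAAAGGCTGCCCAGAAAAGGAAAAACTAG

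The 4 capitals of Cxcl12-202 lie in exon 3, at chr6:117173579-117173582, where the coding sequence simply runs on into a stop codon. The 16 capitals of Cxcl12-203 open its exon 4 at chr6:117178583-117178598. The 94 capitals of Cxcl12-201 open a longer exon 4 at chr6:117176086-117176179. This longer exon contains the whole of exon 4 of Cxcl12-203. The gamma form is known for this added basic tail, which strengthens its binding to heparan sulfate.

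By the deposited estimates, most of the Cxcl12 TPM went to the short alpha-length form. Cxcl12-202 held 81.13% of the TPM of the gene in replicate 1 and 83.57% in replicate 2, a mean of 82.4% ± 1.7 (SD, n = 2). The beta-length Cxcl12-203 held 13.31% and 10.99%, a mean of 12.2% ± 1.6. The gamma-length Cxcl12-201 held 1.69% and 1.48%, and the retained-intron transcript Cxcl12-204 held 3.87% and 3.96%. The order of the 4 transcripts was the same in both libraries, and the deposited TPM intervals of no 2 of them overlapped within a library.

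As TPM, Cxcl12-202 stood at 118.3 (112.8 to 119.2) in replicate 1 and 126.2 (120.1 to 126.9) in replicate 2. Cxcl12-203 stood at 19.4 (18.1 to 20.1) and 16.6 (15.3 to 17.3). The intervals of the 2 libraries did not overlap for either form, and as TPM the 2 forms differed between libraries in opposite directions. These directions hold on the TPM scale only, which was shifted upwards in replicate 2 for most genes (median log2 ratio 0.15). Estimated reads of both forms were lower in replicate 2. Cxcl12-202 drew 6166 and 6150 reads, and Cxcl12-203 drew 1724 and 1379. Cxcl12-201, at 2.46 (2.12 to 2.73) and 2.24 TPM (1.90 to 2.51), and Cxcl12-204, at 5.65 (4.60 to 6.54) and 5.98 TPM (4.91 to 6.98), had overlapping intervals. The share of Cxcl12-202 differed by 2.44 percentage points (replicate 2 minus replicate 1) and that of Cxcl12-203 by -2.32 points. Shifts of this size were near the median of a broad pool of transcripts, which was not matched to those of Cxcl12 in reads or share. Over 11903 transcripts with a share of 5% to 95%, in protein-coding genes with a mean of at least 1000 reads, the median difference between the libraries was 2.35 points. With 1 library on each side, these shifts have no replicate check.

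The shares are estimates that depend on how shared sequence was divided. Of its 5627 nt, Cxcl12-201 has 2456 nt in no other listed transcript of the gene, and Cxcl12-204 has 1016 of its 2894 nt. Cxcl12-202 has 39 of 1878 nt, all at the 5′ end. Its exon 3 lies wholly within exon 3 of the retained-intron Cxcl12-204, so reads inside that exon fit both. How far reads of intron-retaining RNA add to the share of Cxcl12-202 was not tested. Cxcl12-203 has 0 of 3132 nt to itself. Apart from 3 nt at the 5′ end, its reads differ from those of Cxcl12-201 only at the junction into its last exon. Counted as reads, without correction for length, Cxcl12-202 held 70.5% and 73.9% of the reads of the gene, and the 5627-nt Cxcl12-201 held 4.56% and 4.07%.

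**Figure D2:**
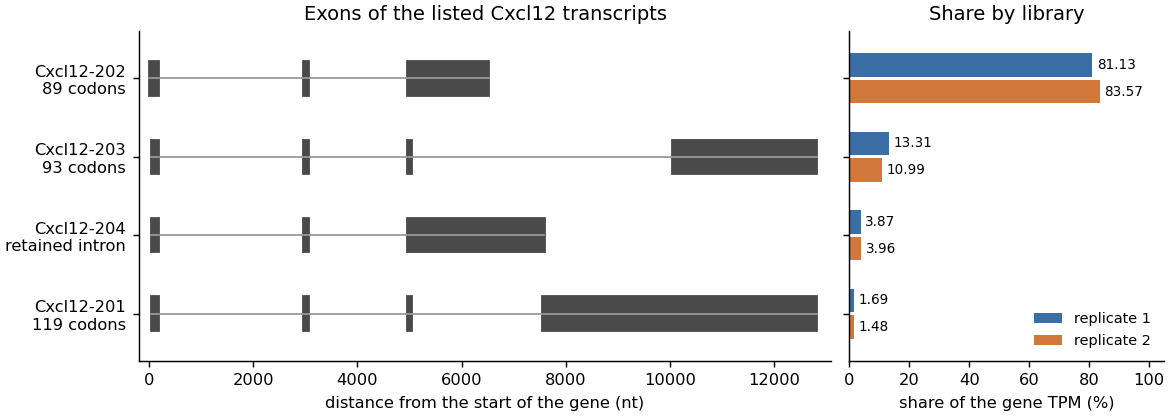
Left, exons (boxes) and introns (lines) of the 4 listed Cxcl12 transcripts, to scale, by distance in nt from the start of the gene. Right, share of the gene TPM (%) in replicates 1 and 2, at 81.13% and 83.57% for Cxcl12-202 and below 14% for each of the others.

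Ackr3 (ENSMUSG00000044337.5) lies on the plus strand of chromosome 1 from 90203980 to 90216751. Its mean was 30.7 ± 1.2 TPM (SD, n = 2), rank 3821 of the 21474 protein-coding genes, and 92.8% of the other detected protein-coding genes lay apart from it by the same rule. Nearly all of it came from Ackr3-201, at 99.25% of the gene TPM in replicate 1 and 98.86% in replicate 2. The second transcript, Ackr3-202 (404 nt), was supported by 2 and 3 reads. Here the division was firm, since Ackr3-201 has 2944 of its 3065 nt to itself and Ackr3-202 has 283 nt.

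Cxcr4 (ENSMUSG00000045382.6) lies on the minus strand of chromosome 1 from 128588199 to 128592293. Its mean was 1.19 ± 0.21 TPM (SD, n = 2), rank 12297 of the protein-coding genes, and 91.8% of the others detected lay above it in both libraries. Of these others, 0 lay below Cxcr4 in both libraries. Detection itself needs 1 TPM in both libraries, so the direction was largely set by that limit. All its estimated reads went to Cxcr4-201 (1805 nt) and none to Cxcr4-202 (902 nt). The posterior mean instead gave Cxcr4-202 14.9% and 12.4% of the gene. Cxcr4-201 has 906 nt to itself and Cxcr4-202 has 3 nt, and the posterior SD of the division was 2.78 reads in each library.

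Within each library, Cxcl12 exceeded Ackr3 by 4.89-fold in replicate 1 and 4.79-fold in replicate 2 (log2 ratio of TPM 2.28 ± 0.02, SD, n = 2). Ackr3 exceeded Cxcr4 by 28.7-fold and 23.7-fold (log2 4.70 ± 0.19). Cxcl12 exceeded Cxcr4 by 140.2-fold and 113.5-fold (log2 6.98 ± 0.22). All 3 pairs were apart in the same direction in both libraries. With 1 TPM added to each value, the mean log2 ratio of Cxcl12 to Cxcr4 was 6.10 and that of Cxcr4 to Ackr3 -3.86, since Cxcr4 itself is near 1 TPM. An exact test over 2 libraries cannot pass 0.05, so no p-value is given. The wider spread of both ratios with Cxcr4 goes with its 52 and 62 reads. Setting the bounds of the 2 genes against each other, the ratio of Cxcl12 to Cxcr4 ranged from 93.4 to 176 in replicate 1 and from 79.3 to 143 in replicate 2. The gene of the atypical, ligand-clearing receptor was thus the more abundant of the 2 receptor genes in heart RNA. In bulk tissue, fewer cells of a type and less RNA per cell cannot be told apart.

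Both Cxcl12 and Ackr3 led their families. Among 39 chemokine ligand genes Cxcl12 ranked 1 and made up 48.9% of their summed TPM in replicate 1 and 49.1% in replicate 2. The next was Pf4, a chemokine of platelets and megakaryocytes, at 40.3 (36.4 to 42.9) and 48.0 TPM (43.5 to 50.7), below Cxcl12 by 3.62-fold and 3.14-fold. Ccl27a followed at 37.5 ± 4.1 TPM and Ccl21a, a chemokine of lymphatic vessels, at 19.8 and 10.3 TPM. Counts of Ccl27a and Ccl21a were not whole, since they have near copies, so these 2 values are uncertain. In all, 16 of the 39 ligand genes reached 1 TPM in both libraries, against 57.3% of all protein-coding genes. No read was drawn in either library by 6 ligand genes, but the share of all protein-coding genes without reads was not counted. Of the 14 ligand genes with a mean of at least 50 reads, 2 were at least 2-fold lower in replicate 2, Ccl21a (log2 ratio of TMM-scaled counts, replicate 2 to replicate 1, -1.08) and Cxcl13 (4.07 and 1.94 TPM, log2 ratio -1.20). Among 8 such receptor genes there were 0. Of all 13766 genes with that many reads, 1.01% were at least 2-fold apart in either direction. The median of the ligand genes was 0.56 TPM, against 3.07 TPM over all protein-coding genes.

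Among 23 chemokine receptor genes Ackr3 ranked 1, with 63.4% and 65.1% of their summed TPM, and Cxcr4 ranked 6, with 2.21% and 2.75%. The second was the macrophage receptor gene Cx3cr1 at 7.27 (6.57 to 7.67) and 5.92 TPM (5.28 to 6.31), below Ackr3 by 4.10-fold and 5.33-fold. Ackr1, the atypical receptor of red cells and venules, stood at 2.02 ± 0.52 TPM (its counts were not whole) and Ccrl2 at 1.99 ± 0.01 TPM. Cxcr4 could not be separated from its neighbours in this order. The intervals of Ackr4 above it (1.65 and 1.64 TPM) and of Ccr1 below it (1.12 and 0.95 TPM) overlapped its own in both libraries. Counts of Ackr4 were not whole. Of the 23 receptor genes, 6 reached 1 TPM in both libraries, against 57.3% of all protein-coding genes. Of those 6, 4 (Ackr1, Ccrl2, Ackr4 and Cxcr4) lay between 1 and 3 TPM.

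**Figure D3:**
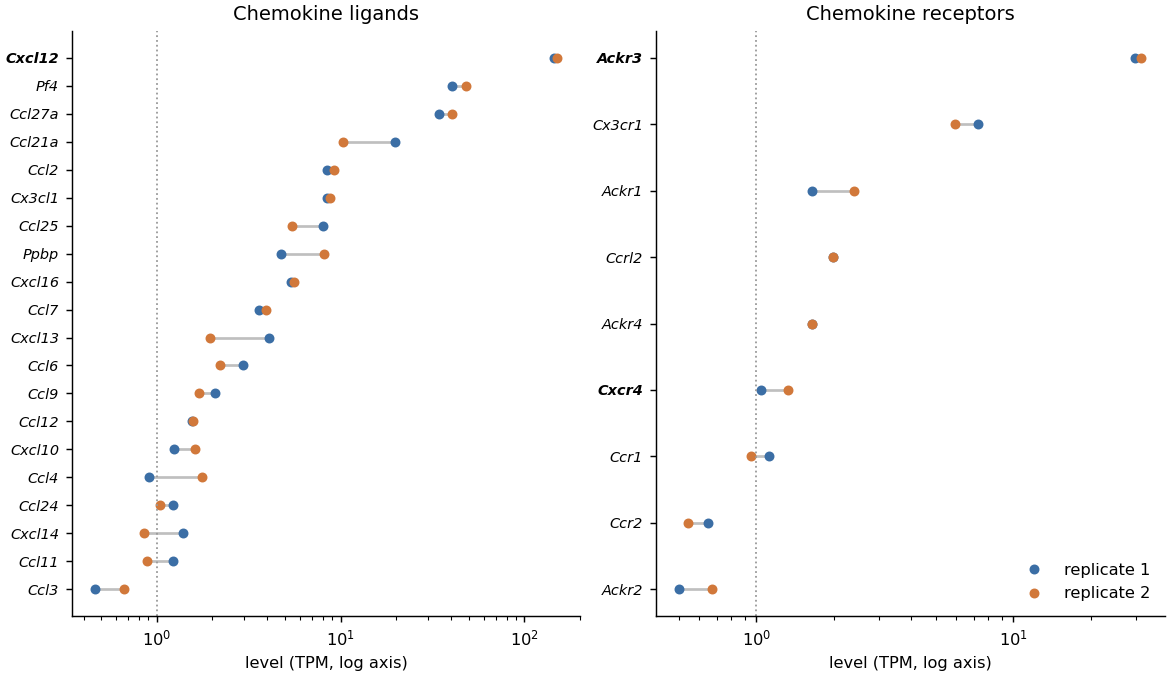
Level (TPM, log axis) of the chemokine ligand and receptor genes with reads in both libraries and a mean of at least 0.5 TPM. Points are the 2 libraries, grey lines join them and the dotted line marks 1 TPM, with Cxcl12 and Ackr3 at the top of their panels and Cxcr4 sixth among receptors.

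The other genes of the pathway were broadly present. Over 9 lists by role, 49 of 55 genes were detected at 1 TPM or more in each library. The median over the 55 was 14.1 TPM, and 0 of the 50 with a mean of at least 50 reads differed by 2-fold between the libraries, against 1.01% of all 13766 genes with that many reads, so the count is near the background. Many of them are active in most cell types, and all are read against the 57.3% of protein-coding genes at this level. Of the other ligands, Mif, a cytokine that also binds Cxcr4, stood at 2006 ± 223 TPM and Hmgb1, which forms a complex with Cxcl12, at 561 ± 63 TPM. Both have many processed copies in the genome and counts that were not whole, so their levels are uncertain. Adm (adrenomedullin), which Ackr3 clears, stood at 8.75 ± 1.61 TPM. Cxcl11, the other chemokine bound by Ackr3, drew 0 reads in replicate 1 and 3 in replicate 2.

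Genes that act just below the receptors differed in level. The inhibitory G protein subunit genes Gnai2, Gnai3 and Gnai1 stood at 311 ± 14, 60.3 ± 3.1 and 19.0 ± 2.8 TPM. All 6 receptor kinase and arrestin genes were detected, and their median was lower at 6.93 TPM. They were led by Grk6 at 13.0 ± 1.1 TPM, and Arrb2 (beta-arrestin 2) stood at 9.67 ± 1.37 and Arrb1 at 6.10 ± 1.10 TPM. The 4 genes of receptor ubiquitination and sorting lay between 27.3 and 40.9 TPM. Itch, the ubiquitin ligase that marks Cxcr4 for breakdown, was lowest of these. Of 11 signalling genes, 10 were detected, led by the small GTPase gene Rac1 at 206 ± 8 TPM, and Pik3cg, the catalytic subunit of a leukocyte-rich lipid kinase, was at 0.91 and 0.95 TPM.

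Genes that cut, hold or regulate the ligand were also measured. Of 6 protease genes, Mmp14 (76.0 ± 4.1 TPM), Mmp2 (72.6 ± 4.6 TPM) and Dpp4 (14.1 ± 1.8 TPM, counts not whole) were detected. The leukocyte protease genes Elane and Ctsg, and Mmp9, were under 1 TPM in both libraries. Among 11 heparan sulfate core protein genes, 10 were detected, led by the glypican gene Gpc3 at 419 ± 31 TPM, and Gpc5 was at 0.15 and 0.35 TPM. The 6 heparan sulfate synthesis genes, all detected, had a median of 7.72 TPM and Ext2 was highest at 56.1 ± 4.2 TPM. Of 4 transcription factor genes known to act on Cxcl12 or Cxcr4, the hypoxia factor gene Hif1a stood at 102 ± 7 TPM (counts not whole), Foxc2 at 5.67 ± 0.54, Epas1 at 4.28 ± 0.13 and Foxc1 at 1.83 ± 0.23 TPM.

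**Figure D4:**
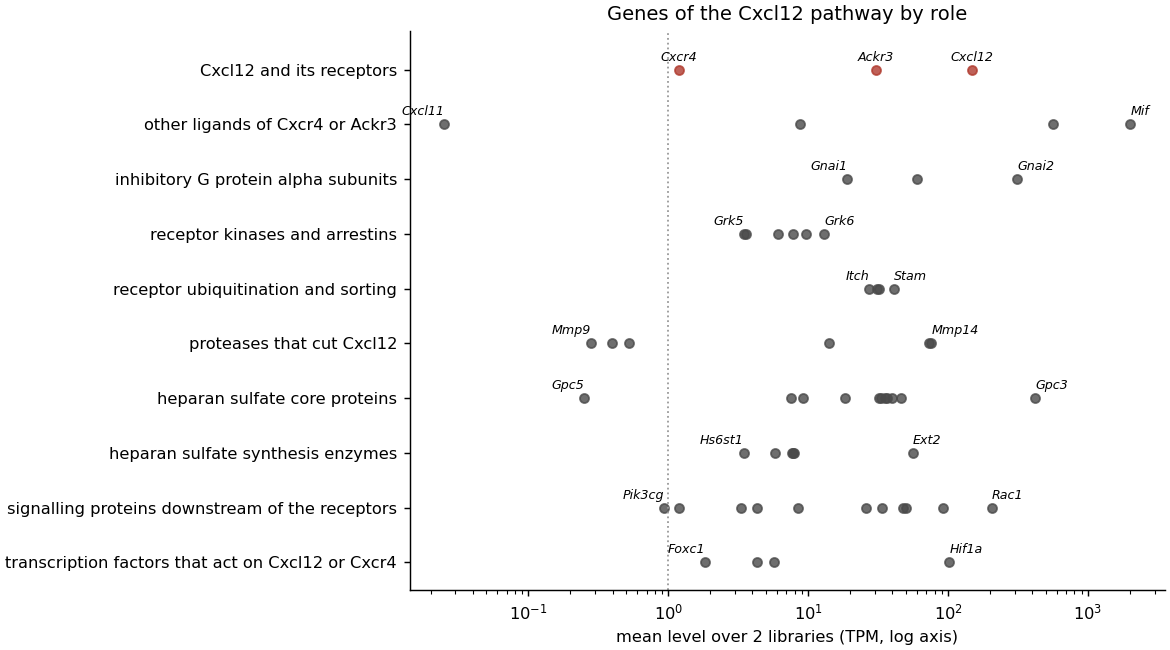
Mean level over the 2 libraries (TPM, log axis) of Cxcl12, Ackr3 and Cxcr4 (red, top line) and of 55 pathway genes by role (grey), with the lowest and highest gene of each role named. Cxcr4 lies just above the dotted line at 1 TPM, and 6 pathway genes lie below it.

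Replicates 1 and 2 were close for all 3 genes. Scaled counts are gene reads divided by a TMM factor, and each log2 ratio below is replicate 2 over replicate 1. Cxcl12 had 8886 scaled counts in replicate 1 and 8200 in replicate 2, a log2 ratio of -0.12 (95% counting interval -0.16 to -0.07). Ackr3 had 2613 and 2497, a log2 ratio of -0.07 (-0.15 to 0.02), and Cxcr4 had 52.8 and 61.1, a log2 ratio of 0.21 (-0.35 to 0.77). None of the 3 was at least 2-fold apart, as 1.01% of 13766 genes with a mean of at least 50 reads were. Among the 727 genes with a count within 1.5-fold of that of Cxcl12, 22.8% differed by more, against 53.3% of 2615 genes near Ackr3 and 63.9% of 1523 genes near Cxcr4. No replicate check of such a difference exists with 1 library on each side. Deposited TPM were shifted upwards in replicate 2 for most genes (median log2 ratio 0.15), and scaling by spike-in RNA gave a median of 1.29. On these 2 scales the ratios of Cxcl12 (0.05 and 1.17) and Ackr3 (0.08 and 1.22) were positive, yet under that median on each.

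**Figure D5:**
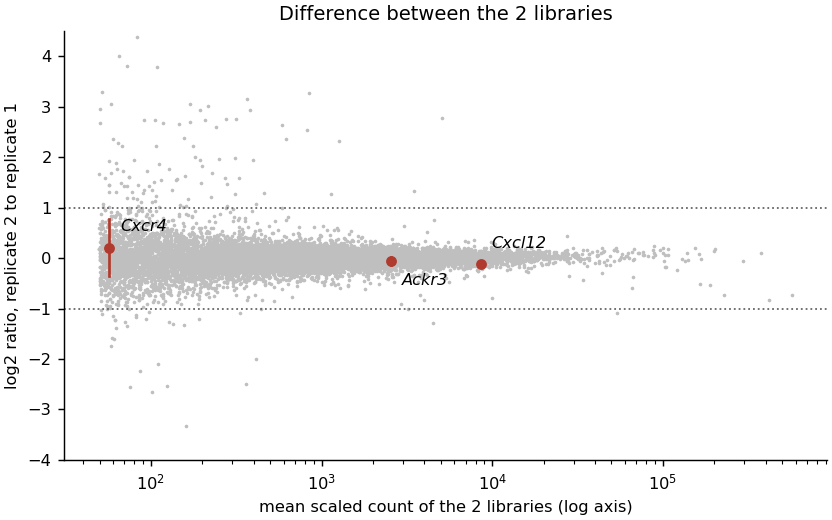
Log2 ratio of scaled counts, replicate 2 to replicate 1, against the mean scaled count (log axis) for 13766 genes (grey). Red points are Cxcl12 (-0.12), Ackr3 (-0.07) and Cxcr4 (0.21) with 95% counting intervals, all between the dotted lines at 2-fold.

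The markers of the labelled tissue were present, with all 6 cardiomyocyte genes detected and Actc1 (cardiac actin) at 9672 ± 1150 TPM. Endothelial genes (5 of 5 detected, summed TPM 194.6 in replicate 1 and 205.5 in replicate 2) and epicardial genes (5 of 5, 175.5 and 156.4) were also present. So were arterial or coronary endothelial (5 of 5), mural (4 of 4) and fibroblast or cushion mesenchyme genes (4 of 4). Genes of a lung list were detected as well (3 of 3, summed TPM 19.03 and 18.99), with Sftpc at 7.89 and 9.37 TPM. Of 4 skeletal muscle genes, 0 were detected. Over all protein-coding genes, 57.3% were detected. Pecam1, carried by endothelial cells in general, stood at 48.8 ± 1.4 TPM, 45.9-fold and 37.4-fold above Cxcr4. Of 6 leukocyte genes, 2 were detected (summed TPM 23.2 and 17.9). These were the macrophage genes Csf1r, at 12.9 and 9.45 TPM (counts not whole), and Cd68, at 8.28 and 7.25 TPM, both with intervals above that of Cxcr4 in each library. The interval of the pan-leukocyte gene Ptprc, at 1.08 and 0.96 TPM, overlapped that of Cxcr4 in both libraries. Cxcr4 is also known from leukocytes, and how much of its signal came from them was not tested. Hepatocyte genes differed between the libraries (5 of 5 at least 2-fold higher in replicate 2, summed TPM 40.3 and 273.4). Over all 13766 genes with a mean of at least 50 reads, 1.01% were at least 2-fold apart in either direction. Summed erythroid genes were 32550 and 20130 TPM. The part of hepatocyte and erythroid genes in the library differences of the 3 genes was not tested.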

How the data were processed

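Per the deposited file descriptions, the authors derived expected counts, TPM and transcript shares (percent of the TPM of the gene) library by library from alignments to the transcriptome, using mm10 and annotation M4. Expected counts carry no normalization, and the sum behind deposited TPM includes spike-ins. The interval bounds are deposited too. No source used here gives the aligner or quantifier. Per the labels' protocols, RNA above 200 nt was used with an input of 10 ng.

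Of 43346 Ensembl genes, 42462 were named from GENCODE M21 (GRCm38) after dropping identifier versions. Transcript lengths of the 3 genes equalled those of M21. The 96 spike-ins (5.96% and 2.56% of reads) and 26248 numbered features were left out of library sizes. Expected counts were rounded and scaled with TMM (edgeR 4.0.16, R 4.3.3), 0.5 was added before log2, and DESeq2 1.42.0 size factors were an alternative. A gene was detected at 1 TPM in both libraries. The libraries were not duplicates of each other (chi-square of their counts 25.2 per degree of freedom). The ratio script was checked on simulated data. Genes, lists, alternatives and comparisons were chosen with earlier results of these data known. Named genes are the 3 genes, up to 4 highest genes of each list and those under 1 TPM where 4 or fewer. Ackr4, Ccr1 and Cxcl13 were named after their values were seen. Other steps used Python 3.11.15, pandas 2.3.3, scipy 1.17.1 and matplotlib 3.10.9.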

Additional observations from a re-analysis of the deposited data

How the results depend on the processing

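Without spike-ins in the sum, TPM were 161.5 for Cxcl12 and 33.4 for Ackr3, and without spike-ins and globin genes 184.7 for Cxcl12, 38.2 for Ackr3 and 1.47 for Cxcr4. These rescalings leave the ratios between the genes as they are. The ratios of replicate 2 to replicate 1 moved to 1.17 for Cxcl12, 1.48 for Cxcr4 and 1.22 for Ackr3 with spike-in scaling, where the median gene was at 1.29, and to 0.0503 for Cxcl12 and 0.0809 for Ackr3 as ratios of TPM. Counted as reads, the leading transcript held 72.2% of Cxcl12 and 99.9% of Ackr3. By posterior mean the leading share was 86.4% for Cxcr4 and 98.7% for Ackr3. At 5 TPM, 8 ligand and 2 receptor genes of the chemokine families were detected, Cxcr4 not among them. The share of all protein-coding genes at 5 TPM was not counted, so these counts have no background to be read against. The log2 ratios between the 3 genes were judged on direction and on deposited intervals that do not overlap. Their direction held under the 5 alternatives run for each, but some ratios moved by more than the spread between libraries. Leaving out 1 replicate could not undo the separation of intervals, since it was required in each library. Adding 1 TPM gave 6.10 for Cxcl12 to Cxcr4 and -3.86 for Cxcr4 to Ackr3, and protein-coding transcripts alone gave 2.22 for Cxcl12 to Ackr3. Leaving out either replicate gave 145.8 to 151.0 TPM for Cxcl12, 29.8 to 31.5 for Ackr3 and 1.04 to 1.33 for Cxcr4. Depth limits Cxcr4 most, whose library ratio has a counting interval from -0.35 to 0.77. A background of at least 200 reads could not be applied to Cxcr4. No paired analysis was possible because there is 1 group.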
